A study of Homo sapiens with 6 samples.

Results

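The RAB genes encode small GTPases that direct traffic between the membranes of a cell. Members were taken as every gene whose array probe set carried 1 gene symbol made of RAB, a number and at most 1 further letter. This gave 57 of the 21299 genes measured, on 138 of the 54613 probe sets tested. The rule uses names and no measured value, but the family was chosen for description with earlier results of these data known. The 6 dimmest (RAB25, RAB33A, RAB38, RAB39A, RAB40A and RAB7B) lay among the dimmest 40% of all probe sets, at or below a log2 value of 4.23. RAB1B was seen by a probe set that it shares with RAB1A, and so is not among the 57.

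A RAB protein switches between a GTP-bound form, which recruits effectors (motors, tethers and scaffolds) to a membrane, and a GDP-bound form. Exchange factors (GEFs) load GTP, GTPase activating proteins (GAPs) end the signal, and GDP dissociation inhibitors carry the inactive protein through the cytosol. To stay on a membrane, most RABs need geranylgeranyl lipid anchors, which RAB geranylgeranyl transferase adds once an escort protein has presented the new RAB to it. The anchor comes from geranylgeranyl pyrophosphate, a product of the mevalonate pathway, and statins block that pathway at HMG-CoA reductase. In hepatocytes RAB proteins guide receptor uptake and recycling, secretion and the handling of lipid droplets. The arrays measure RNA, so neither RAB protein nor its lipid anchor was measured.

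The cells were Huh7, an established human liver cancer line, and all were kept for 24 h in DMEM with 10% FBS. One group received 5 µM of a statin, meant to deplete cholesterol, another received 120 µg/ml native LDL (nLDL), meant to enrich it, and the control group received vehicle. Each group had 2 Affymetrix U133 Plus 2.0 arrays, numbered as replicates in the labels and called biological replicates in the study's methods. Neither says how the cultures were separated. P-values therefore measure the spread between these arrays, which may in part be technical. With 2 arrays a group the precision of each value is limited.

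Values are log2 signals from robust multi-array averaging (RMA). A gene is represented by its brightest probe set, and levels of different probe sets are not comparable as amounts. Array medians lay between 4.84 and 4.91, and the first principal component (45.3% of the variance) set the statin arrays, at 35.8 and 24.2, apart from the other 4, which lay between -17.3 and -12.5. All 15 hepatocyte markers were well above the dim level, with a lowest value of 10.5. Of 14 markers of other cell types, 5 were dim (among them CDH5 of endothelium, at 3.52 in controls) and the leukocyte marker PTPRC was at 4.70 in controls, while LYZ (12.94) and TUBB3 (12.72) were bright in controls as well. None of these 29 markers passed the test with statin against control, although the markers of other cell types had a median difference of 0.19, with 6 of 14 more than 0.25 from 0. LYZ was higher with statin than with nLDL (0.45, limma adjusted p = 0.0416). The part of these shifts in the RAB differences was not tested. One sign of RNA quality did move with the statin. The ACTB 3′ control probe set exceeded the 5′ one by 2.13 and 1.92 in statin arrays, by 1.62 and 1.54 in nLDL arrays and by 1.63 and 1.64 in control arrays. The GAPDH gap was 0.09 and 0.02 in statin arrays and 0.07 to 0.10 in the others. The part of this shift in the statin differences below was not tested. In bulk RNA, a lower level in each cell and fewer cells that express a gene cannot be told apart.

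Between replicate arrays the RAB genes varied about as much as all genes did. The median SD over the 57 genes was 0.072 in statin arrays, 0.050 in nLDL arrays and 0.042 in control arrays. Over all genes it was 0.068, 0.065 and 0.054. The largest SDs were 0.39 for RAB3A with statin, 0.25 for RAB17 with nLDL and 0.38 for the dim RAB33A in controls.

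The first comparison asked which RAB genes differ at the RNA level with the statin. RAB40B and RAB3C rose, and no RAB gene fell. These are 2 of 57 genes (3.51%), against 1.49% of all genes that rose and 2.26% that fell (limma, Benjamini-Hochberg adjusted p at 0.05 over all probe sets). The background holds more dim genes (6020 of 21299) than the family (6 of 57), and shares were not matched for brightness. At an unadjusted limma p under 0.05, 6 RAB genes were higher with statin (10.5%, against 11.7% of all genes) and 5 were lower (8.77%, against 10.1%). After Benjamini-Hochberg adjustment, the methods' t-test called none. Both statin arrays lay above both control arrays for 17 genes (29.8%, against 30.3% of all genes) and below them for 14 (24.6%, against 25.1%). At the unadjusted p and for arrays that did not overlap, the shares of RAB genes were thus near the background. The median difference, statin minus control, was 0.04 over the RAB genes and 0.02 over all genes, and the interquartile range was 0.19 against 0.23. Differences ran between -0.38 and 0.91, with 33 genes above 0 and 24 below, and 9 of the 57 were more than 0.25 from 0. The count of 2 depends on the fit: it was 6 with the dimmest 40% of probe sets left out (4 higher and 2 lower) and 10 with a trended and robust prior (7 higher and 3 lower). Calls over all probe sets grew as well, from 522 higher and 907 lower of 54613 in the main fit. They were 1050 and 1695 of 32768 without the dimmest, and 1787 and 3167 of 54613 with the trended prior.

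**Figure D1:**
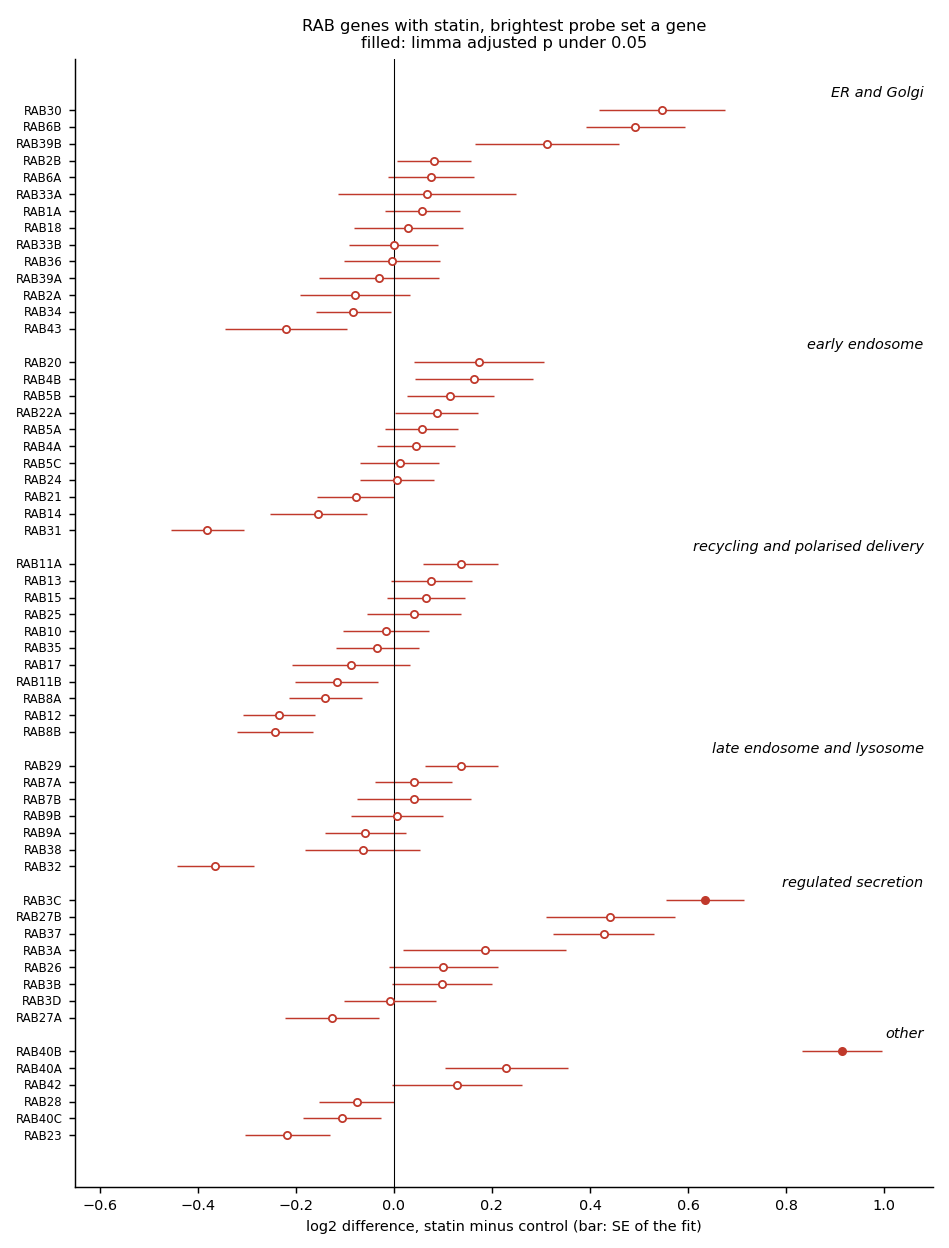
Log2 difference, statin minus control, of the brightest probe set of each of the 57 RAB genes (x axis), grouped by the place in the cell where the protein acts and sorted within each group. Points are fitted differences and bars the SE of the fit (2 arrays a group), and filled points pass the adjusted p of 0.05. RAB40B (0.91) and RAB3C (0.63) are the filled points, and RAB31 (-0.38) is the lowest.

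RAB40B belongs to the RAB40 group, whose members carry a SOCS box that binds cullin 5 ubiquitin ligases. Its log2 signal was 7.58 and 7.65 in statin arrays, 6.90 and 6.80 in nLDL arrays, and 6.73 and 6.67 in control arrays. Both statin arrays stood above the other 4, and the nLDL arrays lay just above the controls. The statin mean was 7.62 ± 0.05 and the control mean 6.70 ± 0.04 (SD, n = 2 each). RAB40B was 0.91 higher with statin than in controls (SE 0.08, limma adjusted p = 0.00589), a 1.88-fold difference that ranked 39 among the 21299 genes. The call was lost without control array 1 (0.94) or control array 2 (0.88). In both statin comparisons, leaving out any 1 array ended most calls over all probe sets. Such losses, here and below, are thus not particular to a gene. The other probe sets of the gene gave 0.06 and, on a dim one, 0.27, so that their mean moved by 0.42 (adjusted p = 0.0165).

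RAB3C is one of the RAB3 proteins of synaptic and secretory vesicles, best known from neurons. It measured 6.29 and 6.38 in statin arrays, 5.69 and 5.76 in nLDL arrays, and 5.70 in both control arrays. The statin arrays again stood clear of the other 4, which lay close together. The difference from control was 0.63 (SE 0.08, limma adjusted p = 0.0154), or 1.55-fold. The call was lost without any single statin or control array, as were most calls over all probe sets, while the difference stayed between 0.59 and 0.68. Its other 3 probe sets gave 0.20, 0.32 and, on a dim one, 0.16, and the mean over probe sets was 0.33 higher (adjusted p = 0.0478).

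RAB30, a RAB of the Golgi, missed the threshold against control and passed it against nLDL. Its values were 7.03 and 7.40 in statin arrays, 6.47 and 6.58 in nLDL arrays, and 6.72 and 6.62 in control arrays. The statin arrays differed more from each other (SD 0.26) than those of the other groups did, yet both lay above all of them. The difference was 0.55 against control (SE 0.13, limma adjusted p = 0.0808) and 0.69 against nLDL (SE 0.13, adjusted p = 0.0445, 1.61-fold). A second probe set of RAB30 gave 0.39 against control (limma adjusted p = 0.0591) and 0.50 against nLDL (adjusted p = 0.0296).

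**Figure D2:**
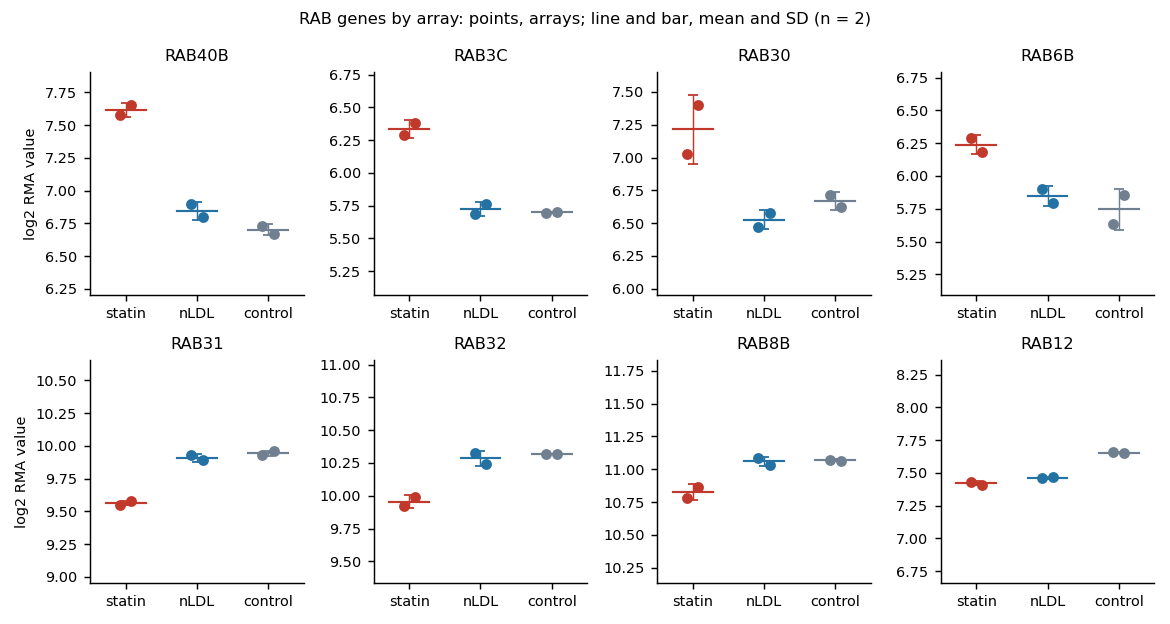
Log2 RMA value (y axis, a separate range of equal height for each gene) of 8 RAB genes in the statin, nLDL and control arrays. Points are arrays, lines group means and bars SDs (n = 2). RAB40B, RAB3C, RAB30 and RAB6B lie highest in the statin arrays, RAB31, RAB32 and RAB8B lie lowest there, and RAB12 lies lower in statin and nLDL arrays alike than in controls.

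The promoters of the 3 genes called in any comparison are printed to show which sequence elements they share. They are RefSeq sequences of GRCh38.p14, from 250 bases before to 50 after an annotated start, read 5′ to 3′ on the strand of the gene. They lie at chr11:83071848-83072147 (minus strand) for RAB30, chr5:58582825-58583124 (plus strand) for RAB3C and chr17:82698649-82698948 (minus strand) for RAB40B. Of the 57 genes, 45 matched a promoter in the table, with 66 promoters in all, and RAB30 had 3 starts listed, of which the first is shown. Capitals mark ACTACANNT, the first part of a motif bound by the zinc finger protein ZNF143, and CCAAT boxes, each on either strand (ATTGG is a CCAAT box on the other strand).
RAB30: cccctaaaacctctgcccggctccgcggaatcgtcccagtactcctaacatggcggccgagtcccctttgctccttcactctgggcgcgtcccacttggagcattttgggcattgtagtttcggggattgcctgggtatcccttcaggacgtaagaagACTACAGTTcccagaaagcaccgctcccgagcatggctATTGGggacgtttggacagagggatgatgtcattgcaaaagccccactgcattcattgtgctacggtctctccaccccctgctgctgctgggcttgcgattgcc
RAB3C: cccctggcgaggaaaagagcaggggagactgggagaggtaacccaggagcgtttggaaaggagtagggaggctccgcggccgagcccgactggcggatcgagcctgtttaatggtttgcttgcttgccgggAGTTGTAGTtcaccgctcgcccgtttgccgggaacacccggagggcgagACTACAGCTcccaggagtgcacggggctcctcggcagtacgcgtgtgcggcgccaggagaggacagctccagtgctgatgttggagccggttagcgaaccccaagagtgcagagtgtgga
RAB40B: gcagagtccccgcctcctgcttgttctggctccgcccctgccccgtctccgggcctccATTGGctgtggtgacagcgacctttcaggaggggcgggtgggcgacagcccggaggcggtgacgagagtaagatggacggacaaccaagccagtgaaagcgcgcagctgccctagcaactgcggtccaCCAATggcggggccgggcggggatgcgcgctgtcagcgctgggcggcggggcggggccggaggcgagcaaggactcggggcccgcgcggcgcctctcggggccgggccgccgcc
The RAB30 promoter held 1 copy of ACTACANNT, RAB3C held 2 and RAB40B none. CCAAT stood once in RAB30, on the other strand, and 2 times in RAB40B, but not in RAB3C. RAB40B also had 5 GC boxes (GGGCGG) in a window of 73.7% GC, against 57.3% for RAB30 and 63.3% for RAB3C. ACTACANNT was searched for after these promoters had been read, so its count is a description. It stood in 5 of the 66 RAB promoters (7.58%; RAB29, RAB30, RAB3C, RAB5C and RAB8B) and in 3.58% of all 35116. RAB8B, which has it too, was at -0.24 with statin against control and was not called. CCAAT was in 31.8% of RAB promoters and 34.6% of all, and GGGCGG in 74.2% and 45%. Median GC was 64.2% in RAB promoters and 58.7% in all, and the GC box is itself made of G and C. The sterol element TCACNCCAC, the TATA box TATAAA, the E-box CACGTG and the TEAD motif GGAATG were in none of the 3 windows. Among RAB promoters the sterol element was found in RAB4B (1 of 66, against 1.13% of all promoters). A match does not show that a factor binds there.

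By the place where their proteins act (1 place assigned to each gene, although many act at several), the RABs of regulated secretion had the highest median difference with statin, 0.14 over 8 genes, against 0.04 or less in each of the other 5 groups. Of these 8 genes, 6 were above 0, against 11801 of all 21299 genes. Only RAB3C passed the test, against 1.49% of all genes that rose and 2.26% that fell. At an unadjusted limma p under 0.05, 3 of the 8 were higher and none lower, against 11.7% and 10.1% of all genes. The methods' t-test called none after adjustment. RAB27B, which docks secretory vesicles and exosome-bearing endosomes, measured 6.74 and 7.00 in statin arrays, 6.34 and 6.11 in nLDL arrays, and 6.32 and 6.53 in control arrays. Its difference from control was 0.44 (SE 0.13, limma adjusted p = 0.139). RAB37, found on secretory granules, measured 7.32 and 7.31 in statin arrays, 6.90 and 7.16 in nLDL arrays, and 6.86 and 6.93 in control arrays, a difference of 0.43 from control (SE 0.10, limma adjusted p = 0.0856). For both genes the statin arrays were the highest, without a call. RAB27A, the close relative of RAB27B, went the other way at -0.13 (limma adjusted p = 0.529), and all 5 of its probe sets lay between -0.16 and -0.11.

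The 14 RABs of the ER and Golgi had a median of 0.04, and none passed against control. At an unadjusted limma p under 0.05, 2 were higher (against 11.7% of all genes), and the methods' t-test called none after adjustment. RAB6B, a relative of RAB6A known for retrograde Golgi traffic in neurons, measured 6.29 and 6.19 in statin arrays, 5.90 and 5.79 in nLDL arrays, and 5.64 and 5.85 in control arrays. It was 0.49 above control (SE 0.10, limma adjusted p = 0.0579), whereas its other probe sets gave 0.14 and, on a dim one, 0.06. RAB6A, the broadly expressed form, was at 0.08 (adjusted p = 0.693), and RAB1A, which acts between ER and Golgi, at 0.06 (adjusted p = 0.739). RAB18, known from lipid droplets and the ER, was at 0.03 (adjusted p = 0.917), and its sign turned when arrays were centred on their medians (-0.0052). RAB43 had the lowest value of this group at -0.22 (SE 0.12, adjusted p = 0.396).

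On the endocytic route no gene passed. Among the 11 early endosome RABs the median was 0.04, and RAB31, which carries cargo from the Golgi to endosomes, lay lowest. At an unadjusted limma p under 0.05, 1 of the 11 was lower. The background for this group and the next was 10.1% of all genes. RAB31 measured 9.55 and 9.58 in statin arrays, 9.93 and 9.89 in nLDL arrays, and 9.93 and 9.96 in control arrays. Both statin arrays were below the other 4, by 0.38 against control (SE 0.07), and the limma adjusted p of 0.0506 fell just short. RAB5A, which organises early endosomes and the first steps of LDL receptor uptake, was at 0.06 (adjusted p = 0.735). Among the 7 late endosome and lysosome RABs (median 0.01, 1 lower at an unadjusted p), RAB32, which acts at lysosome-related organelles, measured 9.92 and 9.99 in statin arrays, 10.32 and 10.24 in nLDL arrays, and 10.32 in both control arrays. Again both statin arrays lay lowest, with a difference of -0.36 from control (SE 0.08, limma adjusted p = 0.0651). RAB7A, the RAB of late endosome maturation, was at 0.04 (adjusted p = 0.828), and its sign turned in the mean over probe sets (-0.026).

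The 11 RABs of recycling and polarised delivery had the lowest median, -0.03, with 7 genes below 0 and none called. At an unadjusted limma p under 0.05, 2 of the 11 were lower, against 10.1% of all genes. RAB8B, which delivers vesicles to the plasma membrane, measured 10.78 and 10.87 in statin arrays, 11.08 and 11.04 in nLDL arrays, and 11.07 and 11.06 in control arrays, a difference of -0.24 from control (SE 0.08, limma adjusted p = 0.16). RAB8A, its paralog, measured 10.09 and 10.12 in statin arrays and 10.26 and 10.23 in control arrays (-0.14, limma adjusted p = 0.364). Statin arrays of both paralogs lay below their controls, without a call. RAB12, known for sending recycling receptors to lysosomes, was at -0.23 (SE 0.07, limma adjusted p = 0.152), and RAB11A, the recycling endosome RAB, at 0.14 (adjusted p = 0.386). Of the 6 RABs outside these groups RAB40B alone was called, against 1.49% of all genes that rose and 2.26% that fell. RAB23, known from Hedgehog signalling and cilia, had the lowest value of the 6 at -0.22 (SE 0.09, limma adjusted p = 0.242).

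Genes with several probe sets show how far a difference depends on the probe. Of the 37 such genes, all probe sets lay above 0 with statin in 11, all below in 11, and on both sides in 15. RAB31, RAB12 and RAB32 gave like values on all their probe sets. RAB31 gave -0.38, -0.31 and -0.38, RAB12 gave -0.23, -0.25 and -0.23, and RAB32 gave -0.36 and -0.26. The probe sets of RAB8B (-0.24, -0.18 and -0.49) and RAB23 (-0.22, -0.31 and -0.52) were all below 0 but varied in size. None of these passed singly. The probe sets of RAB40B, RAB3C, RAB30 and RAB6B were all above 0 and varied in size as well, and those of RAB27B lay on both sides of 0 (0.44, 0.34 and -0.11, the last pair dim). Over all 138 RAB probe sets, 2 rose with statin (1.45%, against 0.956% of all probe sets) and none fell (against 1.66%).

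**Figure D3:**
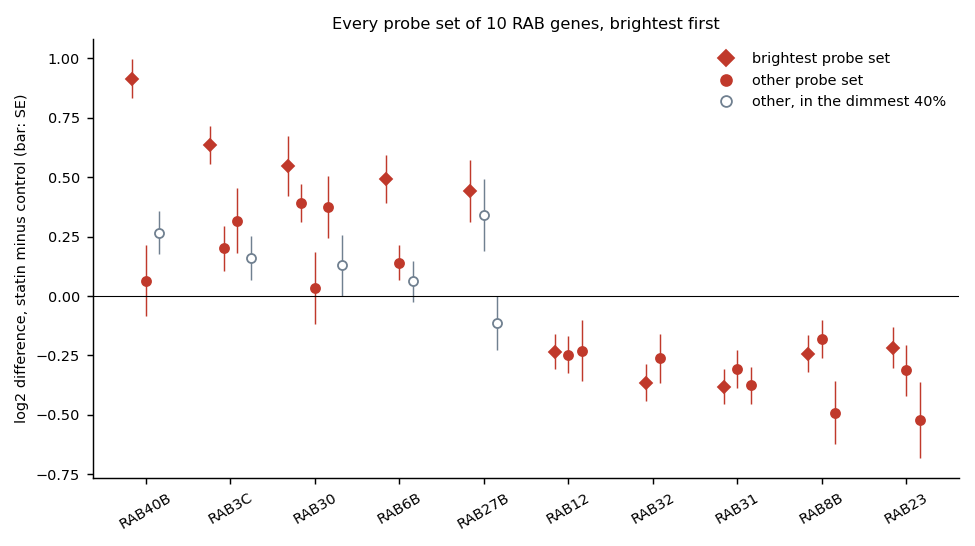
Log2 difference, statin minus control (y axis, bar: SE of the fit), of every probe set of 10 RAB genes, with the brightest probe set as a diamond, others as filled circles and those in the dimmest 40% as open circles. The probe sets of RAB12, RAB32, RAB31, RAB8B and RAB23 all lie below 0, while for RAB40B and RAB3C the brightest one (0.91 and 0.63) stands apart from the rest.

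The second comparison asked which RAB genes differ in cells given nLDL. No RAB gene passed the test, and none of the 21299 genes did (background 0.0%). At an unadjusted limma p under 0.05, RAB38 was higher (1 of 57, 1.75%, against 3.34% of all genes) and RAB12 lower (1.75%, against 1.83%). The methods' t-test, at its unadjusted P of 0.05 and fold of 1.1, took RAB12 (lower) and RAB40A (higher), and none after adjustment. Both nLDL arrays lay above both controls for 10 genes (17.5%, against 17.7%) and below them for 10 (17.5%, against 18.1%). The median difference, nLDL minus control, was 0.00 over the RAB genes, and the interquartile range was 0.13 both there and over all genes.

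RAB12 measured 7.43 and 7.41 in statin arrays, 7.46 in both nLDL arrays, and 7.66 and 7.65 in control arrays. It thus lay below control under both treatments, which share the same control arrays. Its difference with nLDL was -0.19 (SE 0.07, limma adjusted p = 0.804), while its other probe sets gave -0.01 and -0.00. RAB38, a RAB of melanosomes and other lysosome-related organelles, was dim throughout, with 3.86 and 4.16 in nLDL arrays and 3.65 and 3.66 in control arrays (0.36, SE 0.12, limma adjusted p = 0.798). RAB40A, a dim relative of RAB40B, measured 3.26 and 3.25 in nLDL arrays and 3.04 and 3.03 in control arrays (0.22, SE 0.13, limma adjusted p = 0.856). The other genes with the most distant nLDL values also missed the threshold. RAB4B, of early endosomes, was at 0.15 (SE 0.12, adjusted p = 0.921), RAB27B at -0.21 (adjusted p = 0.876), the dim RAB33A at -0.21 (SE 0.18, adjusted p = 0.924) and RAB30 at -0.14 (adjusted p = 0.926). RAB40B and RAB37 were each at 0.14, and RAB3C at 0.02.

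Statin was then set directly against nLDL, the drug meant to deplete cholesterol against the lipoprotein meant to supply it. RAB40B, RAB3C and RAB30 were higher with statin and no RAB gene was lower (3 of 57, 5.26%, against 1.54% of all genes higher and 1.97% lower). RAB40B was 0.77 higher (SE 0.08, limma adjusted p = 0.00886, 1.70-fold) and RAB3C 0.61 higher (SE 0.08, adjusted p = 0.0161, 1.53-fold). At an unadjusted limma p under 0.05, 8 genes were higher with statin (14%, against 9.99%) and 4 lower (7.02%, against 9.24%). RAB27B (0.65, adjusted p = 0.0576) and RAB31 (-0.34, adjusted p = 0.0706) were the nearest to the threshold among those not called. Both statin arrays lay above both nLDL arrays for 17 genes (29.8%, against 26.5%) and below them for 12 (21.1%, against 23.5%). In the secretion group 7 of 8 genes were higher with statin than with nLDL, with a median of 0.17, against 11415 of 21299 genes and a median of 0.01 over all genes. This group was singled out after its values had been seen. Over probe sets, 4 of 138 were higher (2.9%, against 1.04% of all probe sets), of which 2 belong to RAB30, and none was lower (against 1.41%). The RAB3C and RAB30 calls were lost without any single array (adjusted p up to 0.126 and 0.236), and that of RAB40B was lost without any single statin or nLDL array (adjusted p up to 0.0767).

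**Figure D4:**
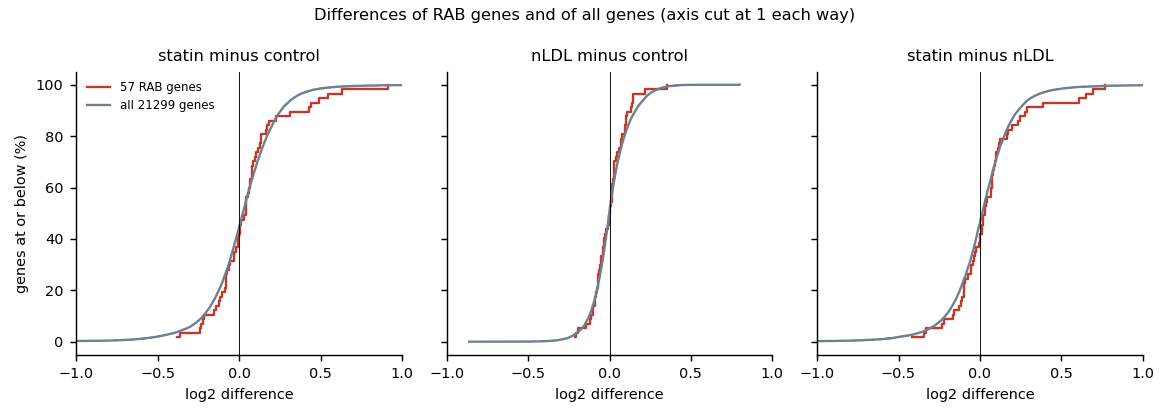
Share of genes (y axis, percent) at or below each log2 difference (x axis, cut at 1 each way) for the 57 RAB genes and all 21299 genes in the 3 comparisons. The RAB curve runs close to that of all genes through the middle of each panel, and with statin its upper end runs to the right of it, at RAB30, RAB3C and RAB40B.

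RNA of the genes whose proteins prenylate RABs and recycle them was measured on the same arrays. Of 10 such genes RABAC1 rose and CHML fell with statin against control, and the other 8 passed in neither direction, against 1.49% of all genes that rose and 2.26% that fell. The median of the 10 differences was 0.09. CHML encodes RAB escort protein 2, which presents new RABs to the geranylgeranyl transferase. It measured 8.58 and 8.74 in statin arrays, 9.85 and 9.81 in nLDL arrays, and 9.85 and 9.93 in control arrays. CHML thus fell by 1.23 with statin against control (SE 0.09, limma adjusted p = 0.00309), and it was 1.17 lower with statin than with nLDL (adjusted p = 0.00344). All 3 of its probe sets above the dim level fell (-1.23, -1.33 and -0.94), and its other 3 were dim, so that the mean over all 6 was -0.57 (adjusted p = 0.012). The statin call held without any single array, with adjusted p between 0.0164 and 0.0485. In the RefSeq annotation CHML lies wholly within the OPN3 gene (100% of its 11519 bases), and the 2 probe sets of OPN3 fell as well, by 0.99 and 1.21. Whether the probe sets of this pair read separate transcripts was not tested.

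CHM, which encodes RAB escort protein 1, was dim on all 3 of its probe sets. Its brightest measured 3.47 and 3.10 in statin arrays, 3.24 and 3.22 in nLDL arrays, and 3.38 and 3.19 in control arrays, a range in which no change can be read. RABAC1, the prenylated RAB acceptor, measured 11.13 and 11.07 in statin arrays, 10.67 and 10.66 in nLDL arrays, and 10.68 and 10.59 in control arrays. RABAC1 was 0.46 above control (SE 0.08, limma adjusted p = 0.0334) and 0.43 above nLDL (adjusted p = 0.0423), and the call against control was lost without any single array (adjusted p between 0.0711 and 0.219).

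FDPS, which makes the farnesyl pyrophosphate from which the geranylgeranyl donor is built, measured 12.19 and 12.23 in statin arrays, 11.61 and 11.62 in nLDL arrays, and 12.08 in both control arrays. The nLDL arrays were the low ones. FDPS was 0.59 higher with statin than with nLDL (limma adjusted p = 0.0138), a call lost without any single statin or nLDL array, while statin differed from control by 0.13 (adjusted p = 0.401) and nLDL by -0.46 (SE 0.07, adjusted p = 0.798). GGPS1, which makes the geranylgeranyl donor itself, was at 0.15 with statin against control (adjusted p = 0.365), and its other probe set gave -0.06. The transferase subunits RABGGTA and RABGGTB were at 0.09 and -0.10 (adjusted p = 0.602 and 0.622), and the other probe sets of RABGGTB gave 0.03 and 0.14. GDI2, an inhibitor that carries GDP-bound RABs, was at -0.03, and the RAB-binding chaperone RABIF at 0.09. Their other probe sets gave -0.13 and -0.11.

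**Figure D5:**
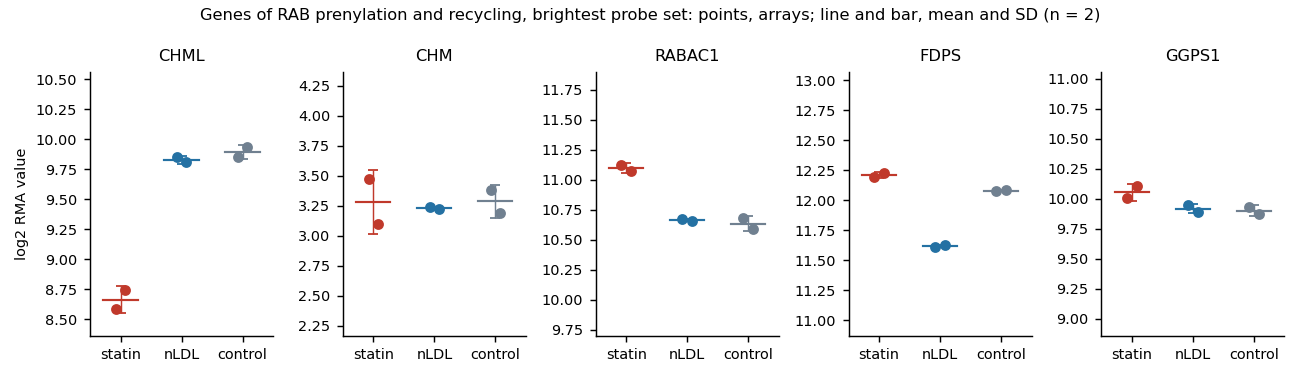
Log2 RMA value (y axis, a separate range of equal height for each gene) of 5 genes of RAB prenylation and recycling in the statin, nLDL and control arrays. Points are arrays, lines group means and bars SDs (n = 2). CHML is lowest in the statin arrays (8.58 and 8.74) and FDPS in the nLDL arrays (11.61 and 11.62), while CHM stays between 3.10 and 3.47.

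Regulators and partners of RABs were counted from lists drawn up with earlier results of these data known. None of 26 GEFs passed with statin against control (3 higher and 5 lower at an unadjusted limma p under 0.05, none by the methods' t-test after adjustment), with a median of 0.05 and a range of -0.29 to 0.29. Of 27 GAPs, TBC1D9 fell by 0.47 (SE 0.09, limma adjusted p = 0.0435), and the median was 0.05. At an unadjusted limma p under 0.05, 2 GAPs were higher and 2 lower. Among 36 effectors 3 rose and none fell, and the median was 0.07. Of the same 36, 11 were higher and 2 lower at an unadjusted limma p under 0.05, and none passed the methods' t-test after adjustment. Over all genes 1.49% rose and 2.26% fell, and the median was 0.02, which is the background for each of these lists. At an unadjusted limma p under 0.05, the background was 11.7% higher and 10.1% lower. The 3 effectors were MICALL2 (0.54, limma adjusted p = 0.0205) and MICAL1 (0.50, adjusted p = 0.0314), both of the MICAL group that links RABs to the actin cytoskeleton, and RAB11FIP1 (0.43, adjusted p = 0.0439), an effector of RAB11 on recycling endosomes. The mean over probe sets ended the call of MICALL2 (0.21, adjusted p = 0.206) and of RAB11FIP1 (0.26, adjusted p = 0.0677). Without single arrays, the calls of TBC1D9, MICAL1 and RAB11FIP1 were lost in every case, and that of MICALL2 without any statin or control array.

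Related small GTPase families give a background for the RABs. In the RAS family the median was -0.00, and RASD1 rose alone among 25 genes. Over all genes 1.49% rose and 2.26% fell. The RASD1 difference was 0.59 (limma adjusted p = 0.0225), a call lost without any statin or control array. In the ARF family, whose members carry a myristoyl rather than a prenyl anchor, none of 24 genes passed, with a median of -0.02. At an unadjusted limma p under 0.05, 2 were higher and 2 lower, against 11.7% and 10.1% of all genes. The RAB median of 0.04 lay within 0.06 of both, and no difference between families was tested.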

How the data were processed

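RNA of 6 Huh7 cultures was hybridised to Affymetrix U133 Plus 2.0 arrays. The deposited values are log2 RMA values per probe set, which the authors made from the raw data with GeneSpring GX 11.5. Arrays have no counting depth. Values came from the deposited series table and symbols from a deposited annotation table, whose 6 value columns match no sample label and were not used. Of 54675 probe sets, 62 controls were left out. Of the rest 43383 had 1 symbol, updated through RefSeq (GRCh38.p14) for 42702.

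All 54613 probe sets were fitted with limma 3.58.1 (R 4.3.3; lmFit, then eBayes, two-sided). The model held 3 group means and left 3 residual degrees of freedom, beside a prior of 4.08. Benjamini-Hochberg adjustment ran over all probe sets, with a threshold of 0.05. The code was tested on simulated data. A permutation of 2 arrays against 2 cannot give p below 0.333, so none was run. Each gene took its brightest probe set by the mean of 6 arrays. The genes named were those called in any comparison, the 6 highest and 6 lowest RAB differences with statin, the 4 of each with nLDL, 8 fixed RAB genes (RAB1A, RAB5A, RAB6A, RAB7A, RAB8A, RAB11A, RAB18 and RAB27A), and up to 4 called members of each other list. Some genes that this rule or the lists name are not reported here. Members and lists were chosen with earlier results of these data known. The alternatives tried were: each array left out in turn, the mean over a gene's probe sets, the methods' t-test, a fit of 2 groups only, a prior with trend and robustness, the dimmest 40% of probe sets removed, median centring, quantile normalization repeated, and a replicate block. For the genes of other lists these were added after seeing the data.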

Additional observations from a re-analysis of the deposited data

How the results depend on the processing

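The number of RAB genes called with statin against control was 2, and it became 6 (4 higher, 2 lower) when the dimmest 40% of probe sets were left out before the fit, 10 (7 higher, 3 lower) with a trended and robust prior, 7 (4 higher, 3 lower) with the mean over probe sets, 8 (3 higher, 5 lower) by the methods' t-test at unadjusted P and 0 by it after adjustment. RAB31 and RAB32 were among the lower calls in each of these 4 settings with any, and centring on medians added RAB31 alone (3 calls). Leaving out single arrays gave 0 to 2 calls. With nLDL the count was 0 throughout, except 2 by the methods' t-test at unadjusted P. With statin against nLDL the 3 calls became 6 without the dimmest probe sets, 7 with the trended prior, 1 (RAB40B) with the compared groups alone, and 8 and 0 by the methods' t-test before and after adjustment. Leaving out single arrays gave 0 to 1. Calls over all probe sets moved with the settings too. Against control, statin gave 522 higher and 907 lower of 54613 in the main fit, and 1050 and 1695 of 32768 without the dimmest. It gave 1787 and 3167 with the trended prior, and 2900 and 3291 by the methods' t-test at unadjusted P. Against nLDL, in the same order, it gave 566 and 768, 1034 and 1333, 1858 and 2606, and 2477 and 2623. The mean over probe sets gave 622 and 786 of 21299 genes against control. Under the replicate block, RAB40B and RAB3C stayed called in both statin comparisons (2 and 2 genes) and RAB30 was lost against nLDL (adjusted p = 0.0638). Correlations of same-numbered deviations were 0.02, 0.05 and 0.09. They cannot show how the cultures were set up, and the labels do not say it, so the block was an alternative only. Signs turned, without a call, for RAB18 with statin when arrays were centred (-0.0052), for RAB1A (-0.040) and RAB7A (-0.026) with statin and RAB40B with nLDL (-0.014) in the mean over probe sets, and when single arrays were left out for RAB18 (-0.10 to 0.16), RAB7A (-0.00225 to 0.084), RAB33A with nLDL (-0.48 to 0.056) and RAB3C with nLDL (-0.014 to 0.063). The causes were not tested.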

Other observations

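Probe sets that RAB genes share with other genes were not counted among the 138. The 3 probe sets shared by RAB4B and the MIA-RAB4B readthrough transcript were all higher with statin than in controls, by 0.43, 0.32 and 0.30 (limma adjusted p = 0.0684, 0.209 and 0.119). Against nLDL they were higher by 0.41, 0.50 and 0.46, and the last passed (adjusted p = 0.0426), with 7.67 and 7.63 in statin arrays and 7.20 and 7.19 in nLDL arrays. With nLDL against control the same 3 probe sets gave 0.02, -0.19 and -0.16, without a call. They were picked after their values had been seen. RAB4B recycles receptors from early endosomes, and its own probe set gave 0.16 against control and 0.02 against nLDL. The probe set shared by RAB1A and RAB1B gave 0.10 with statin against control (adjusted p = 0.558), that of RAB6A and its near copies 0.01 (adjusted p = 0.964), and that of RAB43 and its readthrough 0.02 (adjusted p = 0.905).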
